A study of Mus musculus with 12 samples.

Results

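In 2 of the 12 RNA-seq libraries of S1 tumorspheres, the deposited table carries no number in its name, whereas the other tables of the same name are numbered 1 and 2. These 2 unnumbered libraries, 1 from control cells and 1 from cells labelled double-KO, were compared with their 4 numbered sister libraries. They were chosen from the gene counts themselves, because both lay apart from their own group in the same direction. The difference between the sets is therefore given as a description, with a standard error and without a test. S1 cells derive from a gastric cancer of a ChetPS mouse and carry stable Cas9, and guides were delivered by lentivirus with puromycin selection. Tumorspheres are the round clusters that such cells form in suspension, and the labels of the samples call the same cells a monolayer. All libraries were made from total RNA after removal of rRNA. The legend of the study calls its dots technical replications, and no source states that the libraries of a group came from separate cultures.

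The tables of the 3 libraries labelled double-KO are named for *Rasa1* alone, and their *Nf2* level went against the label. *Nf2*, which encodes the tumour suppressor Merlin upstream of YAP, was at 57.8 against 60.9 and 55.6 CPM in control and at 62.3 against 57.4 and 56.3 CPM in the libraries labelled double-KO, with the unnumbered library given first in each group. It was at 11.6 to 14.3 CPM in the 6 libraries labelled *Nf2*-KO or *Rasa1*-KO. *Rasa1*, which encodes a GTPase-activating protein that turns off Ras, was at 60.2 against 74.8 and 78.8 CPM in control and at 17.6 against 20.6 and 23.3 CPM in the group labelled double-KO. The unnumbered library was below both sisters for *Rasa1* in each group, with differences of -0.35 and -0.31 on the log2 scale, and near them for *Nf2*. The 3 libraries labelled double-KO all had *Rasa1* below every control library. In the libraries labelled *Rasa1*-KO, whose tables are named Do, *Rasa1* was at 30.4 to 34.6 CPM, so both targeted genes were below control there. It was at 97.4 to 101 CPM in those labelled *Nf2*-KO. By level, the group labelled double-KO thus had low *Rasa1* with *Nf2* near control, and the name is kept below only as a label.

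Immediate early genes are transcribed within minutes of a stimulus without new protein synthesis, and many encode AP-1 subunits or proteins that shut the response down again. Gastric epithelium secretes gel-forming mucins and trefoil peptides, carries membrane mucins on its surface and moves antibodies into the lumen. Collagens and fibrillin are the main fibres of the matrix around tumour cells, and NEAT1 is a long noncoding RNA that stays in the nucleus and builds paraspeckles.

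The unnumbered libraries were the most deeply sequenced of the 6. Total counts were 95340850 and 96674463 in the unnumbered control and labelled double-KO libraries, and between 43818139 and 78451665 in the sisters, with the fewest in control 2. Long noncoding RNAs took 2.2% and 2.64% of the counts of the unnumbered libraries and between 5.73% and 6.54% in the sisters, and rRNA genes took 0.595% and 0.398% against 0.88% to 1.7%. The parts of depth, of rRNA and of RNA quality in what follows were not tested, and they cannot be told apart from the set. Epithelial markers were present in both sets: the 7 listed members of a list of 8 gastric epithelial markers summed to between 3243 and 6868 CPM (counts scaled to library size, with TMM factors). No erythroid gene was listed, 3 of 9 immune genes were listed and summed to at most 18.1 CPM, and 3 of 6 endothelial genes to at most 2.21 CPM in these 6 libraries.

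Over the 17642 genes tested, the distance between libraries, the root mean square difference of log2 CPM, put the set before the group for the control library. The unnumbered control library was 0.68 from the unnumbered labelled double-KO library but 0.94 and 1.23 from controls 1 and 2. The unnumbered labelled double-KO library was 0.66 and 0.66 from its sisters, which were 0.35 from each other. Controls 1 and 2 were 0.57 from each other, and control 1 lay between control 2 and the unnumbered control library. These distances describe how the libraries were chosen and test nothing.

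The difference of the unnumbered library from the mean of its sisters had the same sign in both groups for 12653 genes, or 71.7%, with 6418 genes higher and 6235 lower. Its spread over genes was wider in control (SD 1.03 on the log2 scale) than in the group labelled double-KO (SD 0.62), and both exceeded the spread of the sister differences (SD 0.56 and 0.35). A gene was counted where the unnumbered library lay outside both sisters by at least 2-fold from their mean in both groups. By this rule 74 genes (0.419%) were higher and 1150 (6.52%) were lower in the unnumbered libraries. Among 13661 genes with a mean of at least 1 CPM the counts were 45 and 420. The fitted log2 difference had a median of 1.42 over the genes higher and -2.11 over the genes lower, and of 0.01 over all genes tested. Within control alone 763 genes were higher and 3405 lower by the same rule, against 265 and 1476 in the group labelled double-KO alone, so the size of the difference was larger in control. On the deposited FPKM with a pseudocount of 1, which shrinks low genes, 14 genes were higher and 78 lower.

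**Figure D1:**
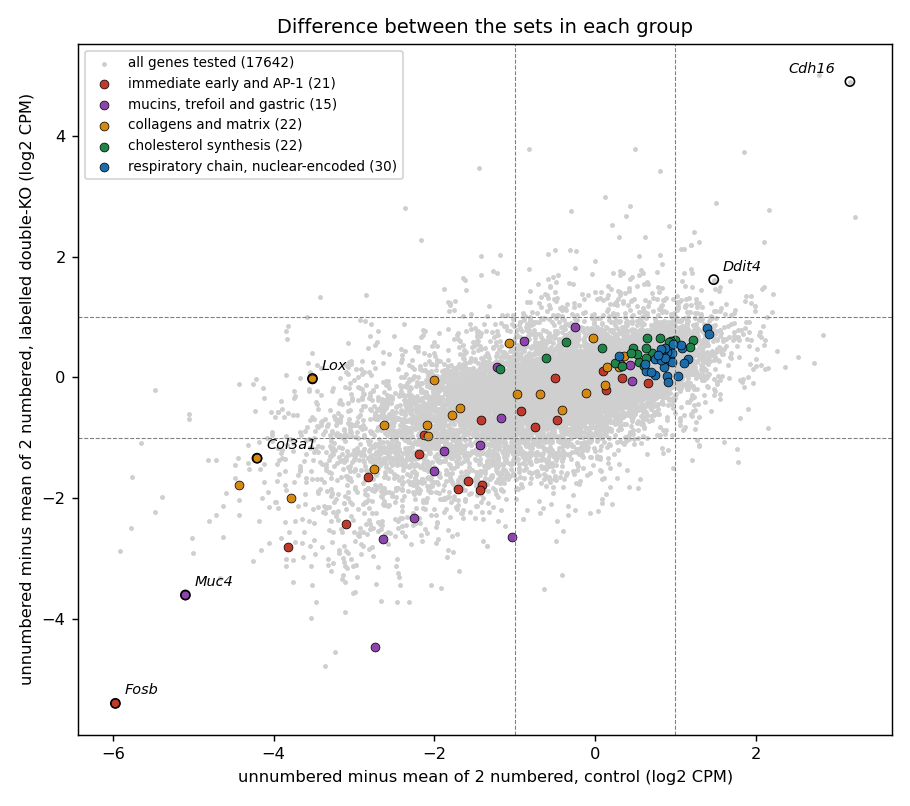
Each point is 1 of the 17642 genes tested, with the unnumbered minus numbered difference in control on the x axis and in the group labelled double-KO on the y axis, both in log2 CPM; dashed lines mark 2-fold, coloured points 5 gene lists, and circled points named genes. Most points far from 0 lie at the lower left, led by *Fosb* at -5.97 and -5.40, while *Cdh16* lies at 3.17 and 4.90.

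Immediate early genes were lower in both unnumbered libraries. Of 21 listed and tested, 9 were at least 2-fold lower in both groups and none was higher, against 6.52% and 0.419% of all genes tested. Their median fitted log2 difference was -1.06 against 0.01 over all genes. The medians were -1.41 and -0.82 in control and in the group labelled double-KO, whereas the sister differences had medians of 0.05 and 0.08, and leaving out each library in turn gave -1.43 to -0.82. *Fosb*, an AP-1 subunit on chromosome 7 (chr7:19302696-19310118, GRCm38.p6), showed the largest difference of all named genes, with 1.04 CPM in the unnumbered control library against 63.1 and 69.96 CPM in its sisters, and 1.4 against 63 and 57.5 CPM in the labelled double-KO group. Its fitted log2 difference was -5.70 ± 0.22 (SE), and its level in the 6 libraries of the other groups was 29.2 to 35.4 CPM, between the sets. *Egr1*, a zinc finger transcription factor induced by ERK signalling, was at 6.37 against 82.5 and 98.6 CPM in control and at 9.38 against 66.5 and 64.7 CPM in the group labelled double-KO, and *Fos*, the founding AP-1 subunit, was at 78.7 against 226 and 200.02 CPM and 69.6 against 254 and 255 CPM. No unnumbered value reached any sister value for these genes.

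The lower members included inhibitors of the response as well as its activators. *Zfp36* encodes tristetraprolin, which destabilizes AU-rich mRNAs, and had 5.04 CPM in the unnumbered control library against 40.8 and 46 CPM in its sisters, and 5.68 against 31.7 and 29.9 CPM in the labelled double-KO group (fit -2.76 ± 0.20). *Dusp1*, a phosphatase of MAP kinases, was at 9.19 against 42.4 and 41.4 CPM in control and 16.8 against 41.7 and 39.3 CPM in the other group, and *Atf3*, a stress-induced repressor, at 17.7 against 57 and 49.1 CPM and 16.5 against 55.7 and 52.7 CPM. *Ier2* had a fitted log2 difference of -1.79 ± 0.15. *Egr2* had differences of -1.41 in control and -1.78 in the group labelled double-KO, and *Egr3* of -2.83 and -1.64. The list did not move as a whole: *Junb*, another AP-1 subunit, was at 361 against 395 and 271 CPM in control and 502 against 598 and 560.02 CPM in the group labelled double-KO, where the unnumbered control library lay between its sisters. *Btg2* differed by 0.32 and 0.20, *Maff* by 0.10 and 0.10 and *Ier3* by 0.72 and 0.35, all on the higher side. *Dusp1* and *Per1* are also glucocorticoid targets, and they were the 2 lower genes of 11 tested in that list, against 6.52% of all genes tested. *Per1*, a clock gene, was at 15.5 against 94.3 and 99.9 CPM in control and 32.3 against 69 and 66.4 CPM in the other group, and *Nr1d1*, a clock repressor, at 2.4 against 17.7 and 21.3 CPM and 4.96 against 14.4 and 14.7 CPM. They were the 2 lower genes of 15 circadian genes, so *Per1* counts in both lists. *Myc* was at 12.4 against 36.7 and 53.7 CPM and 18.6 against 43.1 and 42.3 CPM.

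Promoters of 6 of these 9 lower immediate early genes are in the RefSeq set of GRCm38.p6, which spans 250 bases before to 50 after each start. The 4 shown belong to *Fosb* with the largest difference, *Fos*, and the feedback genes *Zfp36* and *Dusp1*. They lie at chr7:19309996-19310295 (minus strand), chr12:85473640-85473939 (plus), chr7:28379179-28379478 (minus) and chr17:26508423-26508722 (minus), and are written 5′ to 3′ on the gene's strand. Capitals mark every match on either strand to the cAMP response element TGACGTCA, its 5-base part TGACG, which also lies inside it, the AP-1 site TGANTCA, the TEAD site CATTCC and the CArG box bound by SRF.
Fosb: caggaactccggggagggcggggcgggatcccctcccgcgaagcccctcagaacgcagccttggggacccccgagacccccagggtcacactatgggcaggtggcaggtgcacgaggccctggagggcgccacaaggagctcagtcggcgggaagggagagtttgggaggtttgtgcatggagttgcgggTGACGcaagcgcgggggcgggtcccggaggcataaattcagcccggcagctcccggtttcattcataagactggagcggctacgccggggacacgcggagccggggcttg
Fos: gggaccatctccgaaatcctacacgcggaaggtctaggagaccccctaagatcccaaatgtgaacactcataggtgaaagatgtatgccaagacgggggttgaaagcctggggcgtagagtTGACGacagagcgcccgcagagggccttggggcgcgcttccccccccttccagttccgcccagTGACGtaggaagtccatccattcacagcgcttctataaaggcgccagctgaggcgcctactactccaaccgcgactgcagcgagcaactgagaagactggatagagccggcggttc
Zfp36: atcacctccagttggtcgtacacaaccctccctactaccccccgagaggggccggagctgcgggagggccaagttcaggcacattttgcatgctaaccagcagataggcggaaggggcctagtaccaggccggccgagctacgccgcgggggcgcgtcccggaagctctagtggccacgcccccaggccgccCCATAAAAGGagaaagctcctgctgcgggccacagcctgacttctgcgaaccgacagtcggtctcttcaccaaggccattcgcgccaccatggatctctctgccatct
Dusp1: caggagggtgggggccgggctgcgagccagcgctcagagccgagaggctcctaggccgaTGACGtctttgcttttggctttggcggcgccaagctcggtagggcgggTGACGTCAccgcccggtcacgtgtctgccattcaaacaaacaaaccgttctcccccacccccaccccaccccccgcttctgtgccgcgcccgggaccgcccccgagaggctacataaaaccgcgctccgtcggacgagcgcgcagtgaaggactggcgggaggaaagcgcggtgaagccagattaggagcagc
The 5-base TGACG was in a promoter of 5 of the 6 genes (all but *Zfp36*), against 20.8% of all 32851 promoters in the set. The whole TGACGTCA was in that of *Dusp1* only (1.79% of all promoters), and a CArG box was in those of *Zfp36* and *Egr2* (1.63%). TEAD sites (14.7% of all) were in 1 of the 6, *Egr2*, and AP-1 sites (7.81%) in none of these windows. These matches are letters in a window and describe no binding.

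Genes of mucus and trefoil peptides were among the lowest in the unnumbered libraries. Of 15 tested genes of gastric mucus and differentiation, 8 were at least 2-fold lower and none higher, against 6.52% and 0.419% of all genes tested. Their median fitted log2 difference was -1.28. The medians were -1.22 and -1.12 in the 2 groups, the sister differences had medians of 0.05 and 0.00, and the median stayed between -1.31 to -1.12 when each library was left out. *Muc4*, a membrane mucin that partners ERBB2, was at 0.222 CPM in the unnumbered control library against 7.53 and 9.48 CPM in its sisters, and 0.653 against 7.9 and 8.53 CPM in the labelled double-KO group (fit -4.31 ± 0.40). *Muc13*, another membrane mucin, was the most abundant of the lower members, at 36.4 against 157 and 113 CPM in control and 50.6 against 117 and 118 CPM in the group labelled double-KO. The 3 trefoil genes *Tff1*, *Tff2* and *Tff3*, whose peptides protect and repair the mucosa, were at under 5 CPM in each of the 6 libraries. Low genes were lower more often. At means of up to 0.783 CPM, the level of *Tff2*, 20.1% of protein-coding genes were lower. At 0.783 to 6.27 CPM, the level of *Tff1*, *Tff3* and *Muc4*, the share was 8.34%. *Tff3* was at 0.0634 against 0.775 and 0.418 CPM and 0.163 against 3.9 and 4.38 CPM, and *Tff1* at 0.116 against 0.612 and 0.697 CPM and 0.294 against 1.63 and 1.53 CPM. *Agr2*, *Spdef* and *Anxa10* made up the rest of the 8. *Muc5ac*, the gel-forming mucin of gastric surface cells, was split, at 3.88 against 6.99 and 7.43 CPM in control and 2.07 against 1.35 and 1.34 CPM in the group labelled double-KO, lower in the first and higher in the second.

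Mucosal defence did not follow as a list, with a median of -0.01 over 17 tested genes. The medians were 0.38 in control and -0.11 in the group labelled double-KO. By sign, 7 members were higher and 8 lower in both groups. By the 2-fold rule 4 were lower and none higher, against 6.52% and 0.419% of all genes tested. *Pigr*, the receptor that carries IgA across the epithelium, was at 8.8 CPM in the unnumbered control library against 75.3 and 77.2 CPM in its sisters, and 1.83 against 15.9 and 16.4 CPM in the labelled double-KO group, and its fitted log2 difference of -3.13 ± 0.14 was nearly the same in both groups (-3.11 and -3.12). *Dmbt1*, a secreted scavenger receptor, was the most abundant member, at 822 against 3994 and 3467 CPM in control and 837 against 2344 and 2319.6 CPM in the group labelled double-KO. *Duox2*, an epithelial NADPH oxidase, was at 0.0951 against 0.857 and 1.43 CPM and 0.0761 against 2.47 and 2.24 CPM, and *S100a8*, a calprotectin subunit, at 0.349 against 2.24 and 2.69 CPM and 1.00 against 3.89 and 3.49 CPM. In each of these genes both unnumbered libraries stood below all of their sisters. Among 26 interferon response genes 2 were lower, a share near the 6.52% over all genes tested, namely *Mx1* and the nucleic acid sensor *Zbp1*. *Mx1*, named for an antiviral GTPase but annotated here as a transcribed pseudogene, was at 0.877 against 4.92 and 4.92 CPM and 0.402 against 4.03 and 3.99 CPM. None of 26 tested NF-kB and chemokine genes passed 2-fold in both groups, and their median was 0.14.

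Lists of differentiated gut and epidermis held between 1 of 19 and 3 of 19 lower genes, shares on both sides of the 6.52% of all genes tested. *Krt20*, a keratin of differentiated gut epithelium, was at 2.18 against 12.8 and 15 CPM in control and 3.18 against 11.9 and 13.3 CPM in the group labelled double-KO. It was 1 of 3 lower members among 20 tested keratin and cornified envelope genes, with *Krt80* and *Tgm1*. *Anpep*, a brush border peptidase, was at 0.38 against 2.37 and 2.59 CPM and 0.696 against 2.5 and 2.57 CPM, the only one of 13 brush border genes to pass, in a list with a median of -0.02. Of 19 gut transcription factors 3 were lower and 1 higher. *Grhl2*, which maintains epithelial junctions, was at 1.19 against 2.73 and 2.87 CPM and 0.903 against 2.72 and 3.18 CPM, whereas *Foxa3* was at 4.79 against 1.31 and 1.27 CPM and 2.56 against 1.16 and 0.939 CPM; *Foxa1* had a fitted log2 difference of -1.51 ± 0.42 and *Sox21* of -2.44 ± 0.62. *Cldn23* was the only lower gene of 19 of desmosomes and tight junctions. *Tgm1*, *Sox21* and *Cldn23* had means under 0.783 CPM, a level at which 20.1% of protein-coding genes were lower. The prolactin family members *Prl2c2* and *Prl2c3*, which encode proliferins, were at 1.29 against 15.9 and 16.6 CPM and 0.983 against 20.1 and 18.3 CPM in control and at 11.4 against 86 and 94 CPM and 13.1 against 103 and 113 CPM in the group labelled double-KO. They are near-identical neighbours on chromosome 13, so their reads cannot be split with certainty.

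**Figure D2:**
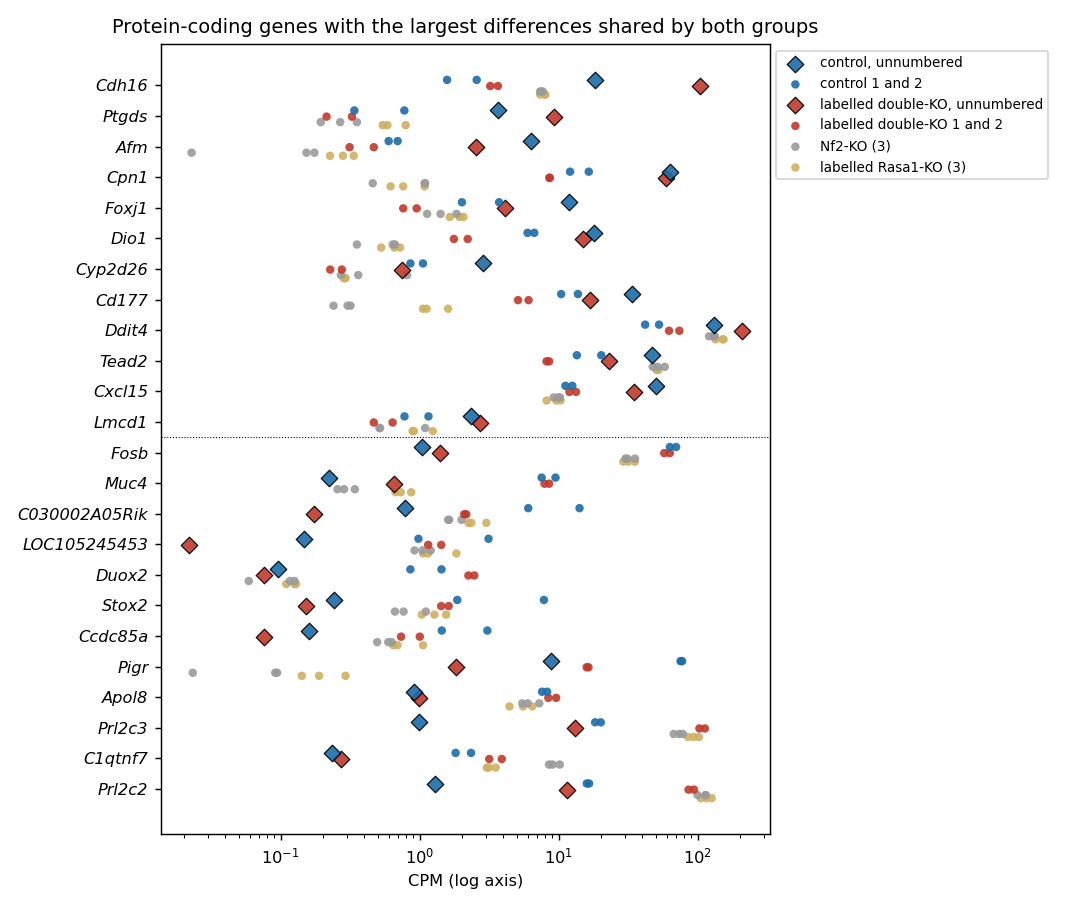
CPM on a log axis for the 12 protein-coding genes that were highest (above the dotted line) and the 12 that were lowest (below it) in the unnumbered libraries by the smaller of the 2 within-group differences; diamonds are unnumbered libraries, dots the numbered sisters and the other 6 libraries. Each diamond lies beyond both sister dots of its own colour, as the choice of genes requires, while the grey and yellow dots lie on either side, with *Fosb* at 29.2 to 35.4 CPM and *Muc4* at 0.256 to 0.868 CPM in those 6 libraries.

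Fibrillar matrix was lower in both unnumbered libraries, with a larger difference in control. Of 22 tested collagen and matrix genes 4 were lower in both groups and none was higher, against 6.52% and 0.419% of all genes tested. Of these 4, *Col1a2* was near the floor, at 0.0211 against 0.163 and 0.498 CPM in control and 0.0653 against 0.294 and 0.188 CPM in the group labelled double-KO. At means of up to 0.783 CPM 20.1% of protein-coding genes were lower. The medians were -1.38 and -0.27 in control and in the group labelled double-KO, with sister medians of 0.13 and 0.06. *Col3a1*, the fibrillar collagen with the highest level, was at 38.4 CPM in the unnumbered control library against 811 and 622 CPM in its sisters, and 95.3 against 244 and 237 CPM in the labelled double-KO group. *Fbn1*, which encodes fibrillin, was at 1.16 against 25.8 and 25.2 CPM and 6.68 against 23.9 and 22.4 CPM, and *Col1a1* at 1.12 against 12.1 and 20.3 CPM and 2.74 against 11.2 and 10.7 CPM. Other matrix genes differed in control only by this rule: *Fn1*, fibronectin, was at 1281 against 3993 and 4249 CPM in control and 3215 against 4549 and 4581 CPM in the group labelled double-KO, and *Col6a3* at 20.6 against 86.5 and 78.3 CPM and 18.5 against 19.8 and 18.5 CPM. Basement membrane collagen did not follow, with *Col4a1* at 343 against 383 and 258 CPM and 304 against 338 and 322 CPM, and *Col6a1* was on the higher side at 1874 against 1139 and 844 CPM and 1696 against 1364 and 1303 CPM. *Lama3*, a laminin chain gene, was lower as well, at 1.00 against 3.82 and 3.19 CPM and 1.66 against 11.5 and 13.6 CPM.

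The matrix genes overlap with markers of fibroblasts. Of 8 such markers 6 were tested and 4 were lower, against 6.52% of all genes tested, and *Col1a2* near the floor is again among the 4. The tested markers summed to 73.4 CPM in the unnumbered control library against 920.2 and 741 CPM, and to 116 against 274 and 267 CPM in the group labelled double-KO. *Col3a1* made up most of each sum. *Pdgfra*, a growth factor receptor of fibroblasts, was at 0.222 against 4.8 and 6.31 CPM and 0.337 against 0.908 and 1.03 CPM, and *Dcn*, decorin, at 31.7 against 73.5 and 77.2 CPM and 15 against 12.8 and 13.4 CPM, lower in control only. *Lum* and *Thy1* were not listed. In bulk RNA, fewer cells of a type and less RNA per cell cannot be told apart, and the part of such cells in these differences was not tested. Mesenchymal and protease genes gave 2 lower members of 13 and 2 of 18, against 6.52% of all genes tested, and *Mmp2* is in both lists. *Mmp2*, a gelatinase, was at 0.137 against 8.24 and 8.09 CPM and 0.653 against 1.48 and 1.36 CPM, *Acta2*, smooth muscle actin, at 1.32 against 5.49 and 4.58 CPM and 8.38 against 16.9 and 17.2 CPM, and *Mmp7*, matrilysin, at 12.1 against 46 and 47.2 CPM and 3.49 against 13.4 and 13 CPM. *Mmp7* differed alike in both groups, with -1.94 and -1.91, whereas *Mmp2* differed by -5.65 and -1.09.

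YAP/TAZ-TEAD and Wnt target genes are the outputs that the study followed. In each list 3 genes passed 2-fold in both groups, all of them lower. These are larger shares than the 6.52% of all genes tested, but each rests on 3 genes. Of 22 YAP/TAZ-TEAD targets 3 were lower and none higher, with a median of -0.29. *Ccn1*, a matrix-associated signalling protein and classical YAP target, was at 16.6 CPM in the unnumbered control library against 58 and 54.5 CPM in its sisters, and 24.8 against 99.4 and 102 CPM in the labelled double-KO group (fit -1.89 ± 0.13). *Igfbp3*, which binds insulin-like growth factors, was at 17.7 against 55 and 51.7 CPM and 81.4 against 239 and 242 CPM, and *Ccdc80* at 0.285 against 1.73 and 2.09 CPM and 1.07 against 2.38 and 2.64 CPM. Of 15 Wnt targets tested, *Myc*, *Sp5* and *Tnfrsf19* were lower in both groups, the last pair at under 1 CPM in each of the 6 libraries, a level at which 20.1% of protein-coding genes were lower (bin of up to 0.783 CPM). The Wnt medians were -1.16 and -0.24, with a sister median of -0.37 in control. *Axin2*, the negative feedback gene of the Wnt pathway, was at 14.7 against 23.7 and 23.1 CPM in control and 35.6 against 25.4 and 23.5 CPM in the group labelled double-KO, lower in the first and higher in the second, and *Sox9* at 15.8 against 52.6 and 89.6 CPM and 39.6 against 35.8 and 36.5 CPM. *Grem1*, a secreted BMP antagonist, was at 0.539 against 15.1 and 14.4 CPM and 2.69 against 7.29 and 6.73 CPM, the only lower one of 16 BMP and TGF-beta targets, a share near that of all genes. No gene of 15 for ERK output passed in both groups, and their median was -0.33.

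Enzymes for retinoids and xenobiotics gave 4 lower genes of 20, against 6.52% of all genes tested. The list as a whole had a median fitted log2 difference of 0.07, with 7 members higher and 8 lower in both groups. *Cyp26b1*, which degrades retinoic acid, was at 0.254 against 10.5 and 14.6 CPM in control and 1.59 against 7.62 and 7.53 CPM in the group labelled double-KO. *Aldh1a3*, which makes retinoic acid, was lower as well, at 0.159 against 4.15 and 4.02 CPM and 5.28 against 15.9 and 17.9 CPM. *Cyp1a1*, the marker gene of the aryl hydrocarbon receptor, was at 0.338 against 1.6 and 2.51 CPM and 0.109 against 0.534 and 0.476 CPM, and *Cyp2b10* had a fitted log2 difference of -2.12 ± 0.54. The mean of *Cyp2b10* was 0.51 CPM, and in the bin of up to 0.783 CPM 20.1% of protein-coding genes were lower. Single members of 2 more lists were lower at low level, the lipid droplet gene *Plin4* (-1.62 ± 0.31) and the NRF2 target *Nqo1* (-1.93 ± 0.43).

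Few genes were higher in both unnumbered libraries, and the leading ones belong to no single list. *Cdh16*, a cadherin of kidney and thyroid epithelium, was at 18.3 CPM in the unnumbered control library against 2.57 and 1.57 CPM in its sisters, and 103 against 3.22 and 3.65 CPM in the labelled double-KO group (fit 4.12 ± 0.38). *Cpn1*, the catalytic subunit of carboxypeptidase N, was at 63.3 against 16.5 and 12.1 CPM in control and 58.7 against 8.56 and 8.63 CPM in the group labelled double-KO, *Ptgds*, a prostaglandin D synthase, at 3.69 against 0.775 and 0.339 CPM and 9.27 against 0.214 and 0.325 CPM, and *Afm*, an albumin family protein, at 6.3 against 0.694 and 0.598 CPM and 2.55 against 0.467 and 0.313 CPM. *Dio1*, which converts thyroid hormone to its active form, was at 18 against 5.97 and 6.67 CPM and 14.9 against 1.76 and 2.22 CPM. For *Cpn1*, *Dio1* and *Cd177* the 6 libraries of the other groups lay below all sister libraries, at 0.459 to 1.09 CPM, 0.353 to 0.722 CPM and 0.24 to 1.6 CPM. *Foxj1*, the regulator of motile cilia, was at 11.9 against 3.73 and 2.01 CPM and 4.13 against 0.761 and 0.951 CPM, and the chemokine *Cxcl15* at 49.9 against 12.5 and 11.2 CPM and 34.8 against 11.9 and 13.3 CPM.

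*Ddit4*, which encodes REDD1, a stress-induced inhibitor of mTORC1, was the most abundant of these genes, at 131 CPM in the unnumbered control library against 52.7 and 41.9 CPM in its sisters, and 208 against 73.8 and 62.2 CPM in the labelled double-KO group (fit 1.54 ± 0.14). With *Adm*, adrenomedullin, at 1.5 against 0.558 and 0.159 CPM and 1.9 against 0.601 and 0.851 CPM, it made 2 higher members of 15 tested hypoxia genes. Of all genes tested 0.419% were higher, and the median of the hypoxia list was 0.05. *Tead2*, a DNA-binding partner of YAP, was at 46.7 against 20.3 and 13.5 CPM in control and 23.2 against 8.54 and 8.17 CPM in the group labelled double-KO, and at 47.5 to 57.9 CPM in the other 6 libraries. *Cbs*, which starts cysteine synthesis from homocysteine, was at 141 against 61.8 and 50.9 CPM and 65.4 against 29.5 and 28.5 CPM, 1 higher gene of 22 in the amino acid response list, in which *Atf3* was the 1 lower gene. *Lmcd1*, *Cyp2d26* and *Cd177* had fitted log2 differences of 1.80 ± 0.33, 1.57 ± 0.28 and 1.53 ± 0.16.

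Lists of abundant cellular machinery were slightly higher, without any gene past 2-fold in both groups. The 30 tested nuclear-encoded respiratory chain genes had medians of 0.88 and 0.33 in control and in the group labelled double-KO, and 29 of them were higher in both. The sister medians of this list were 0.30 and -0.01, with control 1 above control 2. The 21 proteasome genes had medians of 0.80 and 0.19, with sister medians of 0.25 and -0.01, and 18 were higher in both groups. Cholesterol synthesis genes had medians of 0.62 and 0.44 and 19 of 22 higher in both, while the sister medians were 0.08 and -0.03. *Fdps*, farnesyl diphosphate synthase, was at 153 against 71.8 and 60.9 CPM and 176 against 112 and 118 CPM. *Srebf2*, the factor that drives these genes, went the other way in control, at 92.1 against 192 and 226 CPM, and was at 216 against 202 and 192 CPM in the group labelled double-KO.

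Cytoplasmic ribosomal proteins differed between the sets in control but hardly in the other group, with medians of 0.83 and 0.04 over 34 genes. Their summed level was 26050.1 CPM against 16581 and 13031 CPM in control and 24649 against 23639 and 23179.6 CPM in the group labelled double-KO, and the sister median in control was 0.36. Glycolysis had medians of 0.50 and 0.13, lysosome and autophagy of 0.51 and 0.30, heat shock of 0.53 and 0.23, DNA replication of 0.52 and 0.07 and mitosis of 0.38 and 0.03. The sister difference in control had the same sign as the unnumbered minus numbered difference in each of these lists, with control 1 above control 2. In all, 25 of 52 lists with a tested member held no gene past 2-fold in both groups, 26 held a lower one and 3 a higher one.

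**Figure D3:**
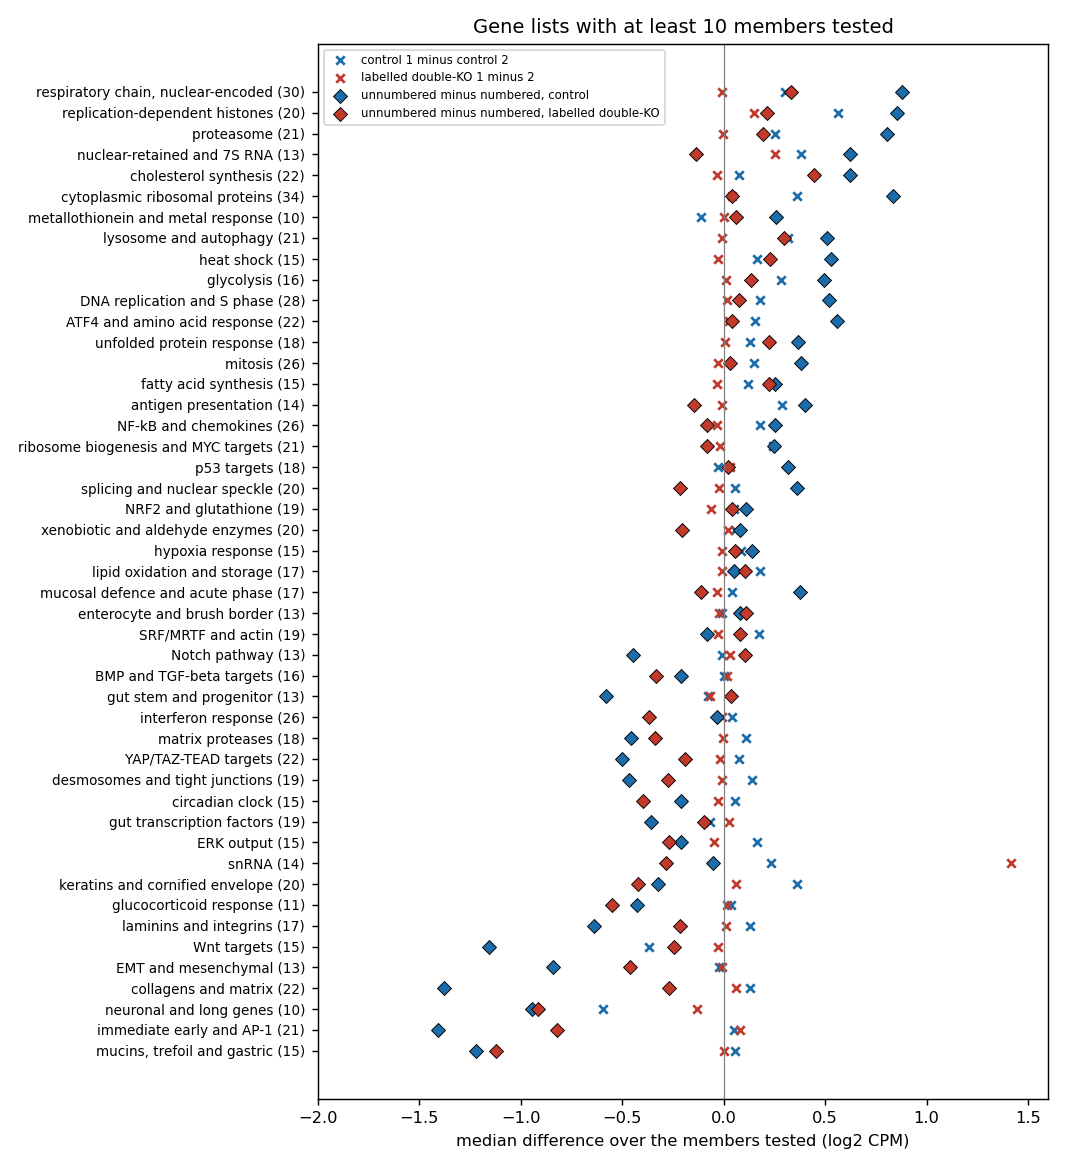
For each gene list with at least 10 tested members (number in brackets), diamonds give the median unnumbered minus numbered difference in control (blue) and in the group labelled double-KO (red), and crosses the median difference of the 2 numbered sisters, all in log2 CPM. Mucins lie at -1.22 and -1.12, immediate early genes at -1.41 and -0.82 and collagens at -1.38 and -0.27 in the 2 groups, and among the red crosses snRNA lies farthest from 0, at 1.42.

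Long noncoding RNA stood apart most broadly. Of 2115 tested lncRNA genes 478 (22.6%) were lower and 10 were higher in both groups, against 545 (3.96%) and 57 of 13749 protein-coding genes. *Neat1* was at 2618 CPM in the unnumbered control library against 18083 and 18303 CPM in its sisters, and 3934 against 22039 and 20203 CPM in the labelled double-KO group (fit -2.61 ± 0.20). It was at 3956 to 5812 CPM in the 6 libraries of the other groups, on the side of the unnumbered libraries. *Malat1*, another nuclear lncRNA, was at 14981 against 32094 and 31353 CPM in control and 19448 against 30941 and 30177 CPM in the group labelled double-KO. *Meg3*, an imprinted lncRNA, was at 0.0951 against 0.449 and 1.2 CPM and 0.0326 against 0.307 and 0.25 CPM. By the median gene, small RNAs were on the lower side, with fitted log2 differences of -0.54 over 63 snRNA genes and -0.51 over 196 snoRNA genes, against 0.07 over protein-coding genes. For snRNA genes, however, the 2 labelled double-KO sisters differed by a median of 0.93, and 3.17% were lower by the 2-fold rule. All snRNA genes together took 2.82% and 2.79% of the counts of the unnumbered libraries, against 1.55% to 2.26% in the sisters. By its CPM given next, *Rn7sk* alone accounts for nearly all of this share, so it describes 1 gene and not the class. The 14 tested members of the snRNA list summed to 48.2 against 50.6 and 47.3 CPM in control. In the group labelled double-KO they summed to 64.8 against 118 and 42.8 CPM. A pair of abundant structured RNAs was on the higher side: *Rn7sk*, which holds P-TEFb inactive, was at 28302 against 20644 and 13453 CPM and 29172 against 22805 and 20538 CPM, and *Rpph1*, the RNA of RNase P, at 12973 against 6613 and 5287 CPM and 12422 against 7465 and 6258 CPM. The host genes *Gas5* and *Snhg1* were higher in control, with differences of 1.39 and 0.93, and not in the group labelled double-KO, with -0.14 and -0.26.

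The difference ran with the level and the length of a gene. Genes were split into 5 bins of equal size, and these are descriptions across genes, which are not independent replicates. In the lowest of 5 bins of protein-coding genes by mean CPM 15.6% were lower in both groups and the median fitted difference was -0.53, whereas in the highest bin 0.436% were lower and the median was 0.16. The share of lncRNA genes that were lower was near that of protein-coding genes in the lowest bin of all genes (up to 0.783 CPM), with 23.9% of 1195 against 20.1% of 1391, and this bin held most lncRNA genes tested. It was 21.9% of 761 against 8.34% of 2231 in bin 2 (0.783 to 6.27 CPM) and 17.3% of 127 against 1.31% of 3208 in bin 3. Transcript length gave a median of 0.35 in the bin of the shortest and -0.22 in that of the longest transcripts. In control these medians were 0.57 and -0.41, and in the group labelled double-KO 0.12 and -0.05. Controls 1 and 2 differed along the same line, by 0.21 and -0.09. The span of a gene in the genome gave a like course, from 0.27 to -0.20, and the GC content of the transcript gave 0.08 in its lowest bin and 0.07 in its highest bin. Very long neuronal genes stood among the lower ones, 4 of 10 tested, against 6.52% of all genes tested. *Csmd1* was at 0.0528 against 3.21 and 5.66 CPM and 0.12 against 0.748 and 0.851 CPM, and *Nrxn3* at 0.402 against 1.85 and 5.2 CPM and 0.435 against 0.988 and 1.23 CPM. *Fosb*, *Zfp36* and *Ier2* are short genes that were lower as well.

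**Figure D4:**
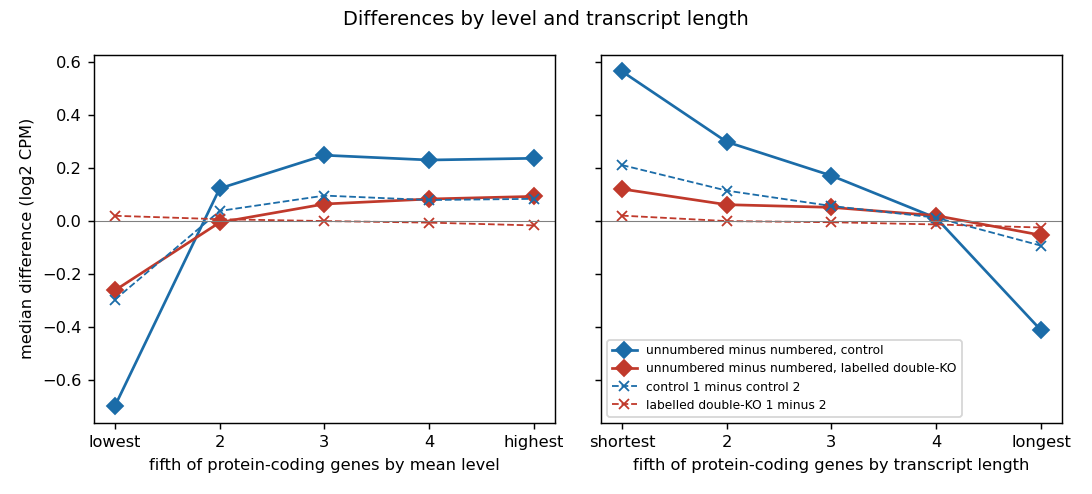
Median difference in log2 CPM for protein-coding genes in 5 bins by mean level (left) and by the length of the longest transcript (right); solid lines with diamonds are unnumbered minus numbered, dashed lines with crosses are the 2 numbered sisters. The control line runs from 0.57 for the shortest transcripts to -0.41 for the longest, and the line of the group labelled double-KO from 0.12 to -0.05.

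Against the 6 libraries of the other groups, neither set was the exception throughout when single genes were compared. In shares of counts those 6 libraries were on the unnumbered side, with 2.02% to 2.8% for long noncoding RNAs, against 5.73% to 6.54% in the sisters. Their total counts, 81566766 to 87751112, were above those of all sisters. Their rRNA share was 0.275% to 0.908%, and only its upper end reached the 0.88% of the lowest sister. Of the 1150 genes that were lower, between 439 (38.2%) and 536 (46.6%) were nearer to the unnumbered mean than to the numbered mean in each of those libraries. For the 74 genes that were higher these were between 17 (23%) and 20 (27%). *Neat1*, *Muc4*, *Duox2* and *S100a8* lay on the unnumbered side, and *Atf3*, *Apol8* and *Krt20* on the numbered side. *Apol8*, an apolipoprotein L gene, was at 0.909 against 8.26 and 7.59 CPM in control, 0.99 against 9.59 and 8.42 CPM in the group labelled double-KO and 4.42 to 7.25 CPM in the other 6. Genotype and set cannot be told apart for those libraries.

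The group comparison, labelled double-KO against control, was not used to choose the libraries and was tested with and without the set in the model. The set was defined from these same counts, so a fit with it leaves out spread that was picked on the values, and its p-values may be too small. With the set as a term, edgeR's quasi-likelihood test called 839 genes (4.76%) at an adjusted p under 0.05, of which 518 rose and 321 fell. Without it 18 genes (0.102%) were called, 9 in each direction, and all 18 were among the 839. *Rasa1* fell by 1.80 on the log2 scale (SE 0.12, adjusted p 0.00161 with the set and 0.0437 without it), and *Nf2* differed by 0.01. These counts rest on single libraries. Leaving out each library in turn gave between 0 and 2702 genes. Without control 1 edgeR called 0 genes, with 2907 at an unadjusted p under 0.05, and DESeq2 called 1031. Without labelled double-KO 1 or 2 the count was 137 or 181, and without the unnumbered library of control or of labelled double-KO it was 2702 or 2640.

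*Igfbp3* led the genes called only with the set, and the same limit holds for each gene and list that follows. It was at 17.7 against 55 and 51.7 CPM in control and 81.4 against 239 and 242 CPM in the group labelled double-KO, and it rose by 2.18 ± 0.11 (log2, SE, edgeR adjusted p 0.000968, against 0.189 without the set). The unnumbered and the numbered libraries thus differed by group to the same extent while they lay apart from each other. *Anxa10*, an annexin of gastric epithelium, rose by 2.58 ± 0.16, *Prl2c2* by 2.67 ± 0.17, *Havcr2*, which encodes TIM-3, by 2.41 ± 0.17 and *Timp3*, a metalloprotease inhibitor, by 1.55 ± 0.11. *Pigr* fell by 2.25 (SE 0.11) and *Mmp7* by 1.81 (SE 0.11). *Adam23*, *C4bp*, a complement regulator, and *Lcn2*, an iron-scavenging lipocalin, fell by 1.49, 1.37 and 1.36 (SE 0.12, 0.12 and 0.12). Glycolysis was the list with the most calls, with 14 of 16 genes higher in the group labelled double-KO, followed by hypoxia with 10 of 15. Of the immediate early genes 2 of 21 were called higher and of the mucus genes 2 higher and 1 lower of 15.

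The change of the set difference between the groups was fitted as an interaction and is given as a description. Each group has 1 unnumbered library, whose spread is taken to be that of the sisters, and the libraries were chosen on these values. The fit put 729 genes (4.13%) past an adjusted p of 0.05, with the difference more positive in the group labelled double-KO for 689 and more negative for 40. That count fell to 357 and 257 without labelled double-KO 1 and 2, and rose to 8592 and 5862 without control 1 and 2, in fits with 1 residual degree of freedom, so no call is drawn from it.

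**Figure D5:**
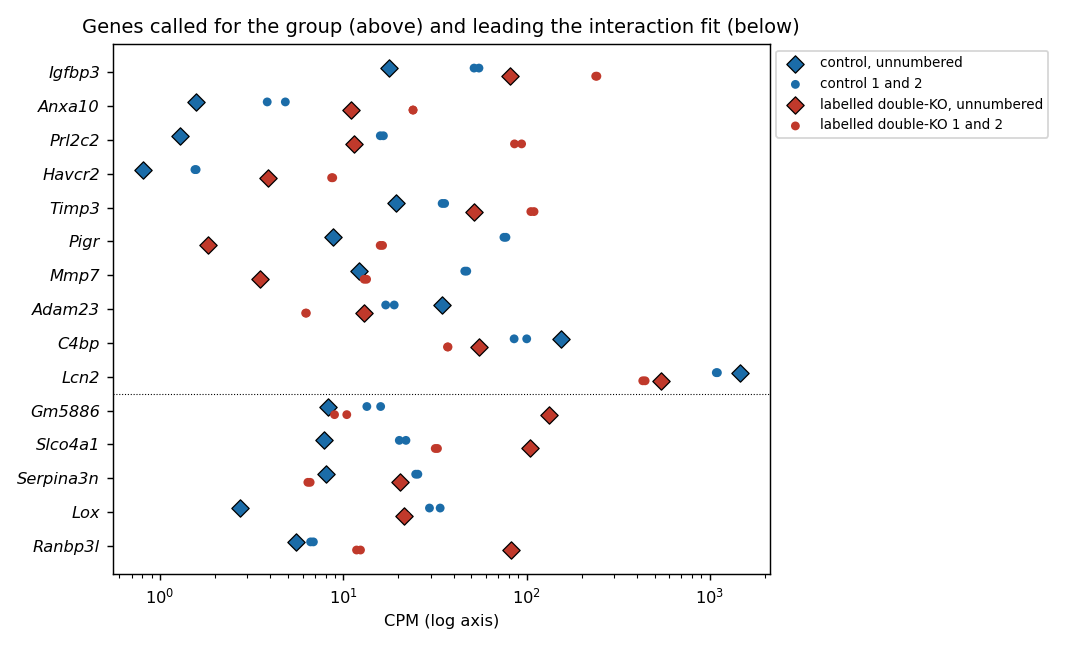
CPM on a log axis in the 6 libraries for the 10 genes with the smallest adjusted p among those called for the group only with the set as a term (above the dotted line) and the 5 leading genes of the interaction fit (below it); diamonds are unnumbered and dots numbered libraries. Above the line the red and blue symbols of each set are apart by about the same distance, as for *Igfbp3*, whereas below it the 2 diamonds and the dots are ordered differently, as for *Lox* at 2.74 against 29.5 and 33.8 CPM in control and 21.5 against 21.5 and 22 CPM in the group labelled double-KO.

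A few genes had opposite differences in the 2 groups. *Slc6a2*, the noradrenaline transporter, was at 0.719 against 4.08 and 3.57 CPM in control and 1.91 against 0.200 and 0.313 CPM in the group labelled double-KO, and *Ptger1*, a prostaglandin E2 receptor, at 0.518 against 1.9 and 3.05 CPM and 0.783 against 0.16 and 0.125 CPM. *Ctla2a*, a protease inhibitor, ran the other way, at 1.64 against 0.449 and 0.478 CPM and 0.587 against 1.31 and 1.44 CPM, as did *Mcpt1* at 8.57 against 4.91 and 3.92 CPM and 8.66 against 15.8 and 17.6 CPM.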

How the data were processed

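RNA of 12 S1 libraries was sequenced, and 6 of them, control and labelled double-KO, were compared here. Groups were taken from the labels and the sets from the names of the tables. The authors used Trimmomatic 0.38 for trimming, HISAT2 2.1.0 for alignment to mm10, SAMtools 1.9, and StringTie 2.1.3b with NCBI RefSeq genes for quantification, per the labels and the study's methods. The deposited read counts are not normalized and were analysed here. The authors also deposited FPKM, used as an alternative, TPM, and log2 values in columns without a stated definition, and neither of the latter was used. The 18926 genes listed each had at least 1 count in all libraries, so genes silent in any library are not seen.

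Genes were kept with filterByExpr (17642) and libraries scaled by TMM in edgeR 4.0.16 under R 4.3.3, with a prior count of 2 for log2 CPM. The set difference came from a quasi-likelihood fit with group and set, and is unadjusted and untested because the libraries were chosen on these values. The group contrast was tested, and the interaction of group and set fitted, with edgeR's quasi-likelihood method with Benjamini-Hochberg adjustment over all genes tested. Alternatives were RLE, no filter, other prior counts, FPKM, DESeq2 1.42.0, single groups, leaving out each library, all 12 libraries, the calling rule of the study and replicate blocks. Lists (53, from general knowledge) were described by counts and medians. The members and lists were chosen with earlier results of these data known. Named are the 12 highest and 12 lowest protein-coding genes with at least 1 CPM by the smaller within-group difference, up to 4 members per list and direction, the 3 most opposite per direction, 5 per direction called for the group only with the set, 5 of the interaction, *Nf2* and *Rasa1*, and other list members were named after their values were seen. Some genes that the rule names are not reported here. Transcript length and GC content came from the longest GENCODE transcript (97.8% of protein-coding genes matched), gene positions and promoters from RefSeq of GRCm38.p6, the patched form of mm10. The code was tested on simulated data, and figures were drawn with matplotlib 3.10.9. p-values measure only the spread between these libraries, and counting error is small at these depths for all but the lowest genes.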

Additional observations from a re-analysis of the deposited data

Results flagged for a closer look

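The interaction fit of edgeR put 729 genes past its threshold for a set difference that changes with the group. It is no independent test, since every value rests on 1 unnumbered library in each group and the libraries were chosen on these values. The 5 leading genes are given as the log2 difference in the group labelled double-KO minus that in control. *Gm5886*, annotated as a transcribed pseudogene, had 4.61 ± 0.25 (SE), with 8.26 against 16 and 13.4 CPM in control and 133 against 8.96 and 10.4 CPM in the group labelled double-KO. *Slco4a1*, an organic anion transporter, had 3.13 ± 0.19, with 7.85 against 22 and 20.2 CPM and 105 against 32.7 and 31.8 CPM, so that its unnumbered library was the lowest of control and the highest of the other group. *Serpina3n*, an acute-phase protease inhibitor, had 3.29 ± 0.20, with 8.05 against 25.5 and 24.8 CPM and 20.4 against 6.6 and 6.41 CPM. *Lox*, which cross-links collagen, had 3.51 ± 0.22, with 2.74 against 29.5 and 33.8 CPM and 21.5 against 21.5 and 22 CPM. *Ranbp3l* had 3.06 ± 0.20, with 5.5 against 6.87 and 6.63 CPM and 81.9 against 11.8 and 12.4 CPM. For *Gm5886* and *Ranbp3l* most of the difference lies in the unnumbered library labelled double-KO.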

How the results depend on the processing

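Among genes at least 2-fold apart in both groups, the counts of 74 higher and 1150 lower were between 73 and 84 and between 1122 and 1225 with RLE size factors, no filter, library sizes without the 20 genes with the most counts, or a prior count of 0.5. They were 14 and 78 on log2(FPKM + 1), 41 and 409 on log2(FPKM + 0.1), 763 and 3405 in control alone and 265 and 1476 in labelled double-KO alone. Leaving out a sister gave 75 to 100 higher and 1055 to 1208 lower, and without an unnumbered library no such count can be formed. All 1014 alternative values of the 78 genes named by level or list that used both groups kept their sign, and 965 were at least 1 in size. The 839 genes called for the group became 842 with RLE, 715 without a filter, 1994 with DESeq2, 18 without the set, 308 by the study's own rule (3-fold and an unadjusted p under 0.05) and 3299 in 1 fit over 12 libraries. The 729 genes of the interaction became 831 with RLE, 519 without a filter and 1554 with DESeq2. Leaving out each library gave between 0 and 2702 genes for the group and between 257 and 8592 for the interaction. With the number in the labels as a replicate block 2916 genes were called for the group, and with the number in the table names 346. By the labels' numbers the deviations of the paired libraries correlated at -0.40 and 0.41 across genes. The first pair joins a numbered with an unnumbered library and the second joins numbered libraries. The unnumbered libraries were chosen for lying apart in the same direction, which favours these signs. The correlations therefore cannot tell whether the numbers pair the libraries. The cause of these changes was not tested. Among named genes with a fitted difference of at least 0.5 in size, the sign changed for *Ctla2a* (0.51, but -1.19 in labelled double-KO alone and -1.22 without the unnumbered control, and 1.81 without the unnumbered labelled double-KO library) and *Slc6a2* (0.82, but -0.12 and -0.17 on log2(FPKM + 1) and log2(FPKM + 0.1), -2.37 in control alone, -2.43 without the unnumbered and -0.19 without the first numbered labelled double-KO library, and 2.89 without the unnumbered control), both named for opposite differences. Among those under 0.5 it changed when a library was left out for *Ptger1* (-2.26 to 2.45), *Serpina3n* (-1.66 to 1.65), *Mcpt1* (-0.95 to 0.93) and *Atrip-trex1*. Among list medians, 509 alternative values moved by less than the sister spread, 271 by more, and 0 of those at least 0.5 in size changed sign. Depth limits genes near the floor, such as *Tff3* with 6 reads in the unnumbered control library.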
